A study of Mus musculus with 3 samples.

Results

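Solute carriers are membrane proteins that move nutrients, ions and metabolites across the plasma membrane and the membranes of organelles. The genes described here are the 82 mouse genes whose symbol starts with Slc and a digit and that reached at least 10 counts per 1000000 counts of the library (CPM) in each of 3 blastoid libraries. They are 82 of the 376 Slc symbols and of the 32285 genes in the files. The level was measured over barcodes with at least 10000 unique molecular identifiers (UMIs) and at most 20% of UMIs from mitochondrial genes, here called deep barcodes. In all, 89 Slc symbols reached the level, and 8 symbols (Slc2a1, Slc2a3, Slc16a1, Slc16a3, Slc6a8, Slc9a3r1, Slc22a18 and Slc38a4) were left out by rule, of which 7 had reached it. The genes were thus chosen by their measured level, and that level is a description here. 2 of the 82, Slc7a6os and Slc4a1ap, carry the symbol of a neighbouring or partner carrier and are not carriers themselves.

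Blastoids are blastocyst-like aggregates of cultured stem cells. They were made from mouse E14 embryonic stem cells described in the labels as Nr1h2-activated, kept with LIF (1000 U/mL) and 10 µM T0901317, a small molecule agonist of the liver X receptors. About 35000 cells, 5 per microwell, were held for 24 h in a medium with 2 µM Y-27632, CHIR99021 at 3 µM, rhFGF4 at 12.5 ng/mL and heparin at 0.5 µg/mL. They were then cultured with FGF4, heparin, CHIR99021, 5 ng/mL BMP4 and 0.5 µM A83-01, picked by hand on day 5 and dissociated for 30 min. The libraries, of blastoid Types I, II and III, share all of these agents, and each type has 1 library of pooled blastoids from 1 cell line. The labels do not say how the types differ.

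The preimplantation embryo holds 3 lineages: the epiblast, which forms the embryo proper, the trophectoderm (TE), which pumps ions and fluid to form the blastocyst cavity and later contributes to the placenta, and the primitive endoderm (PrE), which gives rise to the absorptive endoderm of the yolk sac. Carriers differ in what they move. Families Slc7, Slc38, Slc1, Slc6 and Slc43 carry amino acids, and Slc39 and Slc30 bring zinc into and out of the cytosol. Most Slc25 proteins, though not all, exchange metabolites across the inner mitochondrial membrane. Families Slc4, Slc12 and Slc26 move ions and Slc35 proteins bring nucleotide sugars into the Golgi.

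Deep barcodes numbered 1405, 1992 and 272 in Types I, II and III, with median UMI counts of 52224, 41491 and 71540. Each was put into a state by summed CPM: PrE at 100 or more for Gata6, Sox17 and Gata4, otherwise TE at 800 or more for Krt8, Krt18 and Krt19, otherwise epiblast at 150 or more for Pou5f1. This gave 673, 877 and 63 PrE barcodes, 242, 330 and 72 TE barcodes and 351, 587 and 121 epiblast barcodes, with 139, 198 and 16 in no state. The states are ranges of a score and not cell types: 57, 110 and 6 PrE barcodes lay below 1.5 times their limit, as did 34, 49 and 7 TE and 37, 90 and 8 epiblast barcodes. Of the PrE barcodes 486, 624 and 33 also met the keratin limit. Markers that did not define the states were compared by their sums. The summed CPM of 11 PrE markers was 9936 to 10947 in the PrE state and 79.2 to 254 in the epiblast state, and all 11 were above 10 CPM in the PrE state of each library. The 10 epiblast markers summed to 5156 to 5396 CPM in the epiblast state, and the 10 TE markers to 985 to 1281 CPM in the TE state. Single markers went against their state: the TE marker Tead4 was at 28.7, 27.9 and 32.5 CPM in the PrE state and 10.1, 12.3 and 19.1 CPM in the TE state, and the TE marker Cdx2 was higher in PrE than in TE in Types I and II. The epiblast marker Klf4 was at 73.4 to 93.1 CPM in the PrE state and 34.6 to 52.2 CPM in the epiblast state. The PrE state held 850 to 1394 CPM of the epiblast markers, and the TE state held 1793, 2013 and 517 CPM of PrE markers in Types I, II and III. In Type III, 6 markers of the 2-cell-like state summed to 171 CPM in the PrE state, against 0.0992 and 2.68 CPM in Types I and II. Of this sum Gm8994 made up 142 CPM and Tcstv3 20.2 CPM, while Zscan4c, Zscan4d and Zscan4f were at 5.04, 2.93 and 1.14 CPM and Usp17la at 0. In Type III 161 of 272 deep barcodes had a sequence that also occurred in another library. Only 1 barcode was deep in a pair of libraries at once.

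To show the DNA next to the genes on which the results turn, the 250 bases before the start site were taken from RefSeq (GRCm38.p6) for 4 of them. Slc39a8 and Slc22a23 were among the genes with the highest log2 fold changes in PrE over epiblast, and Slc7a7 among those in PrE over TE. Slc25a5 was an abundant gene that was highest in the epiblast state. RefSeq promoters were matched for 63 of the 82 genes, and only windows with no annotated exon were printed. Capitals mark a match to 1 short motif on either strand, read 5′ to 3′ in the direction of the gene. They mark AGGTCA, a half-site of nuclear receptors such as the liver X receptors, in Slc39a8 (chr3:135825029-135825278, plus strand), and TGCGCNC, the core of the metal response element, in Slc22a23 (chr13:34345219-34345468, minus strand). In Slc7a7 (chr14:54417945-54418194, minus strand) they mark TGATGNAA, the element bound by ATF4, and in Slc25a5 (chrX:36795347-36795596, plus strand) AGATAA, which factors of the Gata family bind.
Slc39a8: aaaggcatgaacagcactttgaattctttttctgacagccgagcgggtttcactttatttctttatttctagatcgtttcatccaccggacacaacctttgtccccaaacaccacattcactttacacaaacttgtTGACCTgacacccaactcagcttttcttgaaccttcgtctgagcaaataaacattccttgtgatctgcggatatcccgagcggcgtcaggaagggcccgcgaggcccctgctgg
Slc22a23: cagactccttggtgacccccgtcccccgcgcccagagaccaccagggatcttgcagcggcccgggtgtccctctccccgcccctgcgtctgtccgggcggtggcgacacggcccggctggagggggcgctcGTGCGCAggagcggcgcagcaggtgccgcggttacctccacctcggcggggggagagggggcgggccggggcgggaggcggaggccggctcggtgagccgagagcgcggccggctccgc
Slc7a7: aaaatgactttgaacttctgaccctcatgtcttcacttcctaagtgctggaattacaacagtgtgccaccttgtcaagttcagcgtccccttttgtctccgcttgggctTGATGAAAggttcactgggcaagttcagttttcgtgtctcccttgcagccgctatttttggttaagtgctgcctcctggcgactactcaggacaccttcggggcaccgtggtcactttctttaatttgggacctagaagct
Slc25a5: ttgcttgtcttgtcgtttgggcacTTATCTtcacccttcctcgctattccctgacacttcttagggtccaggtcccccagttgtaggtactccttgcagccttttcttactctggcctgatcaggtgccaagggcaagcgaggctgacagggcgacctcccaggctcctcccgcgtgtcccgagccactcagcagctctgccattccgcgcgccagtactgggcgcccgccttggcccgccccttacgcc
Among all 32851 RefSeq promoter windows of this length, 14.0% held AGGTCA, 12.5% TGCGCNC, 3.45% TGATGNAA and 9.99% AGATAA. Among the 88 windows of the matched carrier genes the shares were 14.8%, 19.3%, 4.55% and 7.95%. The related core TGCACNC was in 10.4% of all windows and 7.95% of those of the carriers. Windows of Slc39a8 and Slc7a7 that overlap exons were not printed and held further matches, AGATAA among them for both genes. A match describes the letters only.

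The 82 genes together made up 3939, 4004 and 4077 CPM in Types I, II and III, or 0.394%, 0.40% and 0.408% of deep UMIs. The level was concentrated in 3 mitochondrial carriers: Slc25a4 (ADP/ATP carrier 1), Slc25a3 (the phosphate carrier) and Slc25a5 (ADP/ATP carrier 2) took 38.6% to 39.7% of it. The median carrier was at 20.1 to 21.9 CPM, and 37 to 39 of the 82 lay under 20 CPM. The 3 genes just above the limit, by their lowest library, were Slc1a3 (10.3 CPM), Slc30a1 (10.4) and Slc8b1 (10.5), and the 3 just below it were Slc38a9 (9.99), Slc25a37 (9.85) and Slc44a3 (9.67). UMIs were counted at the 3′ end of transcripts, so CPM is a share of molecules that is not divided by gene length.

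**Figure D1:**
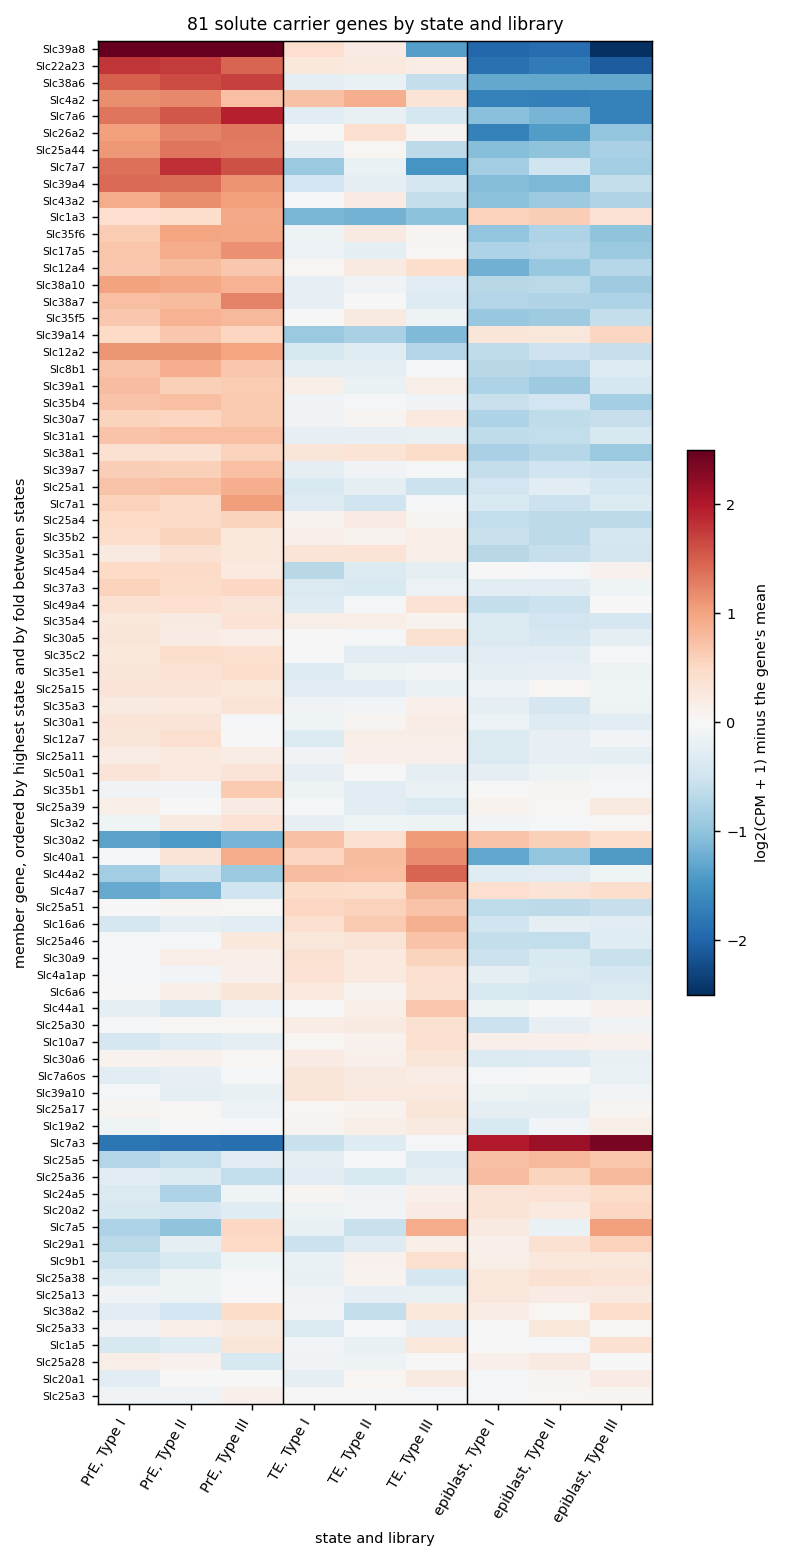
Level of 81 of the 82 genes (rows) in each state and library (columns), as log2(CPM + 1) minus the gene's mean over the 9 columns, with genes grouped by their highest state. The block of genes highest in the PrE state is the largest (47 genes), and the 3 libraries of a state look alike for most genes.

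By mean CPM over the 3 libraries, 48 genes were highest in the PrE state, 18 in the TE state and 16 in the epiblast state. Out of all 82 genes, 36, 11 and 7 had that state on top with its 3 libraries not overlapping the other states. Among the 7023 genes at 10 CPM or more in every library, such separation was found in 1787 (25.4%) with the PrE state on top. With the TE state on top it was found in 1622 (23.1%) and with the epiblast state in 772 (11%). Both sets of counts are out of all genes, 82 or 7023, and not out of those highest in a state. How many of the 7023 genes had their highest mean in each state was not counted. The split into 48, 18 and 16 genes thus has no share of all genes beside it. Since 17 of the 82 genes lay under 10 CPM in the epiblast state of every library, against 4 in the TE state and 3 in the PrE state, the rule on the pooled level admitted some genes through 1 state only. The counts, fold changes and p values below are therefore descriptions. Summed over the 82 genes the PrE state had 4375, 4551 and 5003 CPM, the TE state 3618, 3762 and 3839 CPM and the epiblast state 3369, 3462 and 3593 CPM in Types I, II and III, without overlap in these plain totals. The trimmed-mean factors used for the tests below were 1.07, 1.08 and 1.19 for the TE state and 0.898, 0.893 and 0.924 for the epiblast state. Scaling by them lowers the TE sums and raises the epiblast sums, so the order of these states depends on the scaling. Sums over groups of genes given below also use plain totals. The highest state mean was at least 2 times the lowest for 41 genes, at least 4 times for 15 and at least 10 times for 4.

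States were compared with edgeR's quasi-likelihood test on counts summed per library and state, with the library as a block and Benjamini-Hochberg adjustment over 13502 genes. The words higher and lower mark an adjusted p of at most 0.05 and a fold of at least 2. All 82 genes passed the filter on low counts. Slc7a1, Slc38a7, Slc38a10, Slc43a2, Slc30a7, Slc31a1, Slc25a44, Slc25a51, Slc35f5 and Slc35f6, and Fth1, Mt1 and Mt2 among the other genes, were named after their values were seen. The 3 libraries serve as replicates of the difference between states, and nothing in the labels says that they came from separate cultures, so a p measures only how alike that difference was across them. Relative to plain totals the trimmed-mean (TMM) scaling moved the median log2 fold change of all genes by -0.14 for PrE over epiblast, -0.29 for TE over epiblast and 0.15 for PrE over TE.

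In the PrE state 28 of the 82 genes were higher than in the epiblast state and 6 were lower. Calls were made in 19.6% (higher) and 17% (lower) of all genes tested, and in 17.3% and 7.48% of the 7023 genes at 10 CPM or more. The median log2 fold change was 0.44 over the 82 genes and 0.03 over all genes tested. In the TE state 8 genes were higher than in the epiblast state and 5 were lower, where calls were made in 12.4% and 9.6% of all genes tested and in 9.04% and 3.7% of those at 10 CPM or more. Here the medians were 0.04 and 0.02, and with plain totals in place of TMM scaling the counts were 15 higher and 4 lower. Between PrE and TE, 22 genes were higher in the PrE state and 4 in the TE state, where calls were made in 12.1% and 12% of all genes and in 10.1% and 4.34% of those at 10 CPM or more. The medians were 0.46 and 0.00. The 3 comparisons share their libraries, so they are given side by side and not as evidence for each other. In barcodes with 5000 to under 10000 UMIs, which the rule did not use and in which 52 of the genes could be tested, 11 genes were called higher and 5 lower in PrE over epiblast, where 563 of all 5964 genes tested there were higher and 330 lower. There 0 genes were called in either direction between PrE and TE by edgeR, with 6 higher and 5 lower at an unadjusted p of at most 0.05 and no other tool run.

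**Figure D2:**
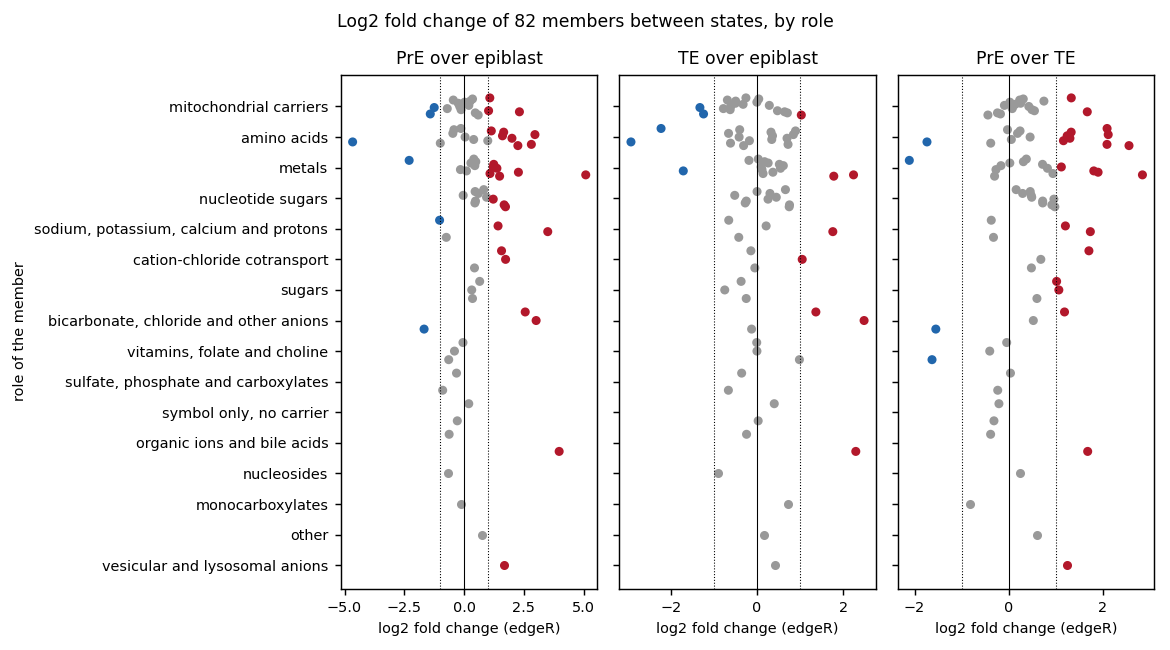
Log2 fold change of each of the 82 genes (points) from edgeR in 3 comparisons of states (panels), by the role of the gene (rows). Red points were called higher, blue points lower and grey points neither, dotted lines mark a 2-fold difference, and the amino acid and metal carriers hold 7 red points each in PrE over epiblast. Of all genes tested there, 19.6% were called higher.

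Amino acid carriers were the group with the most genes called in PrE over TE. Of 15 such genes, 7 were higher and 1 was lower in PrE over epiblast, 8 were higher and 1 lower in PrE over TE, and none was higher and 2 were lower in TE over epiblast. Their summed level was 881 to 1177 CPM in the PrE state, 630 to 734 in the TE state and 617 to 699 in the epiblast state. Of all genes tested, 19.6% were higher and 17% lower in PrE over epiblast. The shares were 12.1% and 12% in PrE over TE and 12.4% and 9.6% in TE over epiblast. Slc7a7, Slc7a6 and Slc7a5 encode light chains that work only in pairs with the heavy chain Slc3a2, and Slc7a1 and Slc7a3 are carriers of arginine and lysine that work without it.

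Slc7a7 (y+LAT1, which exports arginine and lysine in exchange for neutral amino acids; ENSMUSG00000000958, chr14:54369442-54417780, minus strand) was at 150, 208 and 175 CPM in the PrE state of Types I, II and III, 29.8, 51.4 and 20.1 CPM in the TE state and 31.0, 40.3 and 31.4 CPM in the epiblast state. The PrE libraries lay above all others, and TE and epiblast overlapped. Its log2 fold change was 2.24 ± 0.17 (SE) over epiblast (edgeR adjusted p = 1.5e-06) and 2.56 ± 0.18 over TE (2.2e-06). TE over epiblast was -0.31 (0.17). It shares 232 exon bases with Oxa1l on the opposite strand, and no source used here says whether the counting used strand. After thinning each barcode to 10000 UMIs, a Slc7a7 UMI was found in 64.8%, 73.8% and 54.0% of PrE barcodes in the 3 types, with exact 95% intervals of 61.0 to 68.4, 70.7 to 76.7 and 40.9 to 66.6. The variance of its counts over their mean (the Fano factor, 1 for random sampling) was 2.44, 2.64 and 2.74 in the PrE state and 3.02, 3.79 and 2.21 in the TE state, against 1.13, 1.20 and 1.38 in the epiblast state. In the TE state its UMIs sat in fewer barcodes than random sampling gives, 27.6% against 45.3% in Type II.

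Slc7a6 (y+LAT2, of the same function; chr8:106168857-106198706) was at 52.2, 60.1 and 79.4 CPM in the PrE state, 16.2, 17.3 and 14.5 in the TE state and 9.11, 8.31 and 5.52 in the epiblast state. The states did not overlap. It was higher in PrE than in epiblast by 2.81 ± 0.18 and than in TE by 2.09 ± 0.18 on the log2 scale (edgeR adjusted p = 4.9e-07 and 6.5e-06). The heavy chain Slc3a2 was far more even, at 142, 179 and 195 CPM in the PrE state, 132, 142 and 140 in the TE state and 146, 150 and 156 in the epiblast state. PrE over epiblast was 0.04 ± 0.09 on the log2 scale (0.70).

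Slc7a3 (CAT3; ENSMUSG00000031297, chrX:101079210-101086020, minus strand) had the opposite order. It was at 1.96, 1.82 and 1.79 CPM in the PrE state, 6.02, 7.25 and 8.99 in the TE state and 40.0, 44.7 and 52.5 in the epiblast state, with no overlap between states. It lay under 10 CPM in every PrE and TE library and met the 10 CPM rule through its epiblast level, so its fold changes are descriptions. It was lower in PrE than in epiblast by a log2 fold change of -4.66 ± 0.11 (edgeR adjusted p = 5.3e-09), in TE than in epiblast by -2.92 ± 0.10 (6.5e-08) and in PrE than in TE by -1.74 ± 0.14 (4.0e-06). The last of these turned in barcodes with 5000 to under 10000 UMIs, to 0.88. A thinned UMI was found in 27.9%, 27.6% and 34.7% of epiblast barcodes and in 1.78%, 1.48% and 3.17% of PrE barcodes, at matched depth. Slc7a1 (CAT1), which carries the same amino acids, was at 38.4, 35.7 and 53.5 CPM in the PrE state and 19.3, 17.2 and 19.9 in the epiblast state, a log2 fold change of 0.99 ± 0.09 that fell just short of 2-fold, and it was higher in PrE than in TE by 1.16 ± 0.09 (edgeR adjusted p = 4.3e-06).

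Slc38a6, an orphan member of the sodium-coupled neutral amino acid family, was at 44.0, 47.9 and 50.8 CPM in the PrE state, 12.6, 13.2 and 9.47 in the TE state and 5.55, 5.54 and 5.52 in the epiblast state. Its states did not overlap, and the log2 fold change was 2.96 ± 0.13 over epiblast and 2.11 ± 0.12 over TE (edgeR adjusted p = 4.1e-08 and 7.9e-07). For this gene 20.1% of windows of 50 bases near its transcript end also occur in other genes, so its level is uncertain. Also higher in PrE than in epiblast were Slc38a10 (1.65 ± 0.08), the lysosomal glutamine carrier Slc38a7 (1.60 ± 0.14) and the neutral amino acid carrier Slc43a2 (2.00 ± 0.16). The glutamine carrier Slc38a1 was at 119, 119 and 137 CPM in the PrE state, 112, 116 and 125 in the TE state and 51.3, 55.0 and 47.5 in the epiblast state. It was higher in PrE than in epiblast by 1.13 ± 0.08 (8.7e-07), which was 0.98 with barcodes that meet more than 1 state limit left out, and TE over epiblast was 0.89 ± 0.08, short of 2-fold.

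Slc38a2, which takes up neutral amino acids under amino acid shortage, was the most abundant amino acid carrier and varied more by library than by state. It was at 130, 113 and 219 CPM in the PrE state, 151, 105 and 190 in the TE state and 181, 163 and 216 in the epiblast state, with the highest value in Type III in each state. The glutamate carrier Slc1a3 was lowest in the TE state: 3.30, 3.22 and 3.69 CPM there against 11.7, 12 and 17.4 in the PrE state and 13.2, 13.6 and 11.3 in the epiblast state. TE over epiblast was -2.23 ± 0.18 and PrE over TE 2.09 ± 0.18 (edgeR adjusted p = 5.7e-06 and 6.9e-06). The taurine carrier Slc6a6 (56.3 to 87.8 CPM as state means) and the glutamine carrier Slc1a5 (17.8 to 21.0) were not called in any of the 3 comparisons.

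Among 14 metal carriers, 7 were higher and 1 was lower in PrE over epiblast, 4 were higher and 1 was lower in PrE over TE, and 2 were higher and 1 lower in TE over epiblast. Their sum was 469 to 480 CPM in the PrE state, 307 to 341 in the TE state and 202 to 213 in the epiblast state. Of all genes tested, 19.6% were higher and 17% lower in PrE over epiblast. The shares were 12.1% and 12% in PrE over TE and 12.4% and 9.6% in TE over epiblast.

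Slc39a8 (ZIP8, an importer of zinc and manganese; ENSMUSG00000053897, chr3:135825279-135888572, plus strand) had the widest range of all 82 genes, 40.9 times between its highest and lowest state mean. It was at 88.1, 89.6 and 85.4 CPM in the PrE state, 18.8, 16 and 4.66 in the TE state and 2.80, 2.95 and 0.673 in the epiblast state. No library of one state overlapped another state. The log2 fold change was 5.08 ± 0.32 for PrE over epiblast, 2.84 ± 0.26 for PrE over TE and 2.24 ± 0.36 for TE over epiblast (edgeR adjusted p = 3.6e-07, 1.1e-05 and 4.9e-04). The TE value of Slc39a8 was lowest in Type III, as was the sum of PrE markers held in the TE state, at 1793, 2013 and 517 CPM. Types I and II stood in opposite order for the gene and the markers. The part of those markers in the TE level was not tested. PrE over TE was 0.82 in barcodes with 5000 to under 10000 UMIs. A thinned UMI was found in 53.9%, 56.0% and 49.2% of PrE barcodes, 11.6%, 12.7% and 4.17% of TE barcodes and 1.71%, 2.39% and 0.826% of epiblast barcodes, and its Fano factor in the PrE state was 1.21 to 1.30.

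Slc39a4 (ZIP4, the zinc importer of absorptive epithelia; chr15:76612383-76617384) was at 66.7, 65.7 and 54.2 CPM in the PrE state, 17.2, 20.5 and 18.0 in the TE state and 10.9, 10.7 and 15.8 in the epiblast state. It was higher in PrE than in epiblast by 2.27 ± 0.15 and than in TE by 1.90 ± 0.14 (edgeR adjusted p = 4.4e-07 and 3.2e-06), and TE over epiblast was 0.37 ± 0.16 (0.073). Slc39a14 (ZIP14) was lowest in the TE state, at 5.03, 5.57 and 4.34 CPM against 15.2, 17.4 and 15.8 in the PrE state and 13.2, 13.1 and 15.8 in the epiblast state. TE over epiblast was -1.71 ± 0.14 and PrE over TE 1.81 ± 0.13 (5.6e-06 and 2.9e-06). Slc39a7 (ZIP7, which releases zinc from the endoplasmic reticulum) was called in PrE over epiblast at 1.08 ± 0.07, but 90.2% of the windows near its transcript end also occur in Gm20427, so its level is uncertain.

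Slc30a2 (ZnT2, which loads zinc into vesicles; chr4:134343181-134354484) was the 1 metal carrier lower in PrE than in both other states. It was at 4.61, 4.29 and 5.37 CPM in the PrE state, 22.5, 17.6 and 28.7 in the TE state and 22.4, 20.4 and 18.2 in the epiblast state. PrE lay below all others and TE and epiblast overlapped. The log2 fold change was -2.30 ± 0.14 over epiblast and -2.11 ± 0.15 over TE (edgeR adjusted p = 3.3e-07 and 2.1e-06). A thinned UMI was found in 4.46% and 2.96% of PrE barcodes of Types I and II and in 0 of 63 in Type III, which allows a share of up to 4.76%, against 15.7% to 18.5% of epiblast barcodes. Of the other zinc exporters, Slc30a7 had the opposite direction and was higher in PrE than in epiblast (1.24 ± 0.10), and Slc30a1, at 9.24 to 13.0 CPM as state means, was not called.

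For iron and copper, Slc40a1 (ferroportin, which exports iron from cells; chr1:45908068-45926523) was at 23.7, 30.9 and 47.7 CPM in the PrE state, 35.7, 42.7 and 56.5 in the TE state and 9.36, 11.8 and 8.48 in the epiblast state. Both extraembryonic states lay above the epiblast and overlapped each other. It was higher in PrE by 1.48 ± 0.17 and in TE by 1.78 ± 0.17 than in epiblast (edgeR adjusted p = 2.0e-05 and 1.5e-05). Its UMIs were spread least evenly over TE barcodes of Type III, where the Fano factor was 2.56. The copper importer Slc31a1 was also higher in PrE than in epiblast (1.21 ± 0.08) and TE (1.12 ± 0.08), with state means of 56.3, 28.7 and 22.3 CPM for PrE, TE and epiblast.

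Genes of metal handling other than carriers, from a list of 20 tested genes, moved both ways in PrE over epiblast, with 5 higher, 4 lower and a median log2 fold change of 0.21. These counts were near the shares of all genes tested, 19.6% higher and 17% lower. The iron-binding protein transferrin (Trf, 4.10), the copper pump Atp7b (3.86) and the ferritin heavy chain Fth1 (2.55) were higher. The transferrin receptor Tfrc (-3.24) and the zinc-binding metallothioneins Mt2 (-3.13) and Mt1 (-2.38) were lower. Mean levels of Fth1 were 5038 CPM in PrE and 775 CPM in epiblast, and those of Mt1 721 and 3396 CPM.

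**Figure D3:**
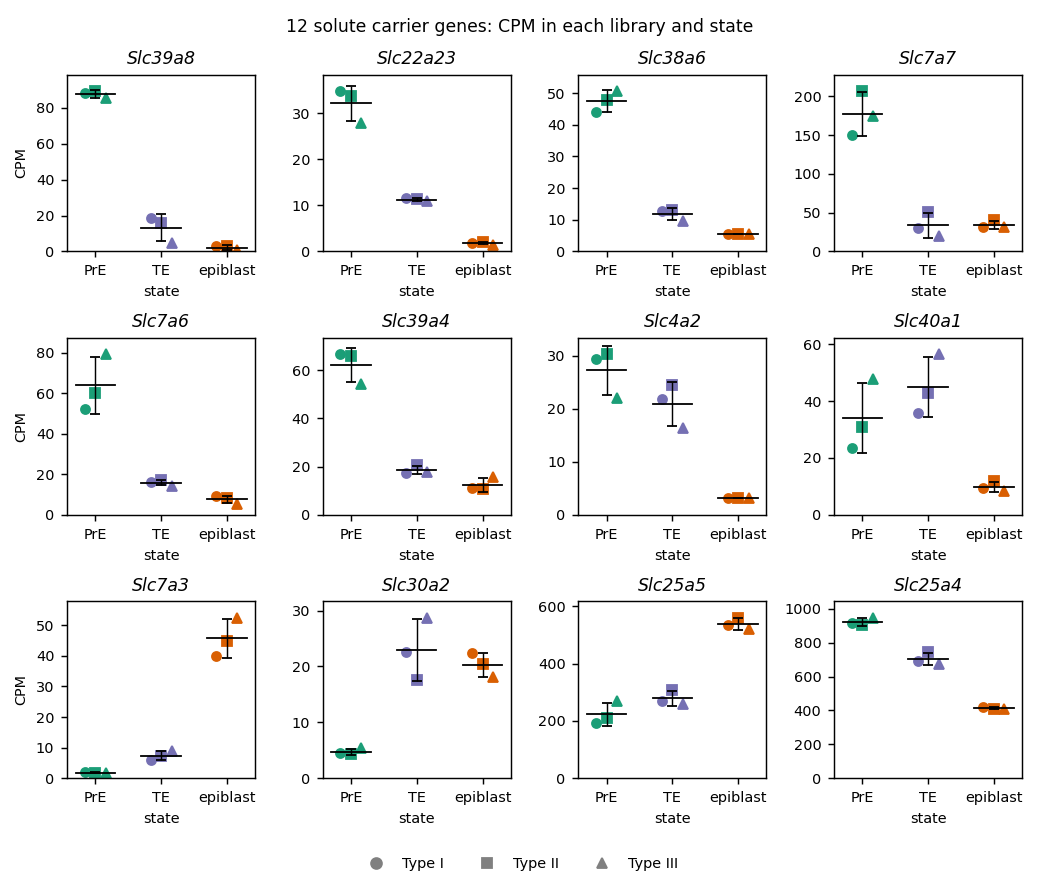
CPM of 12 genes (panels) in the PrE, TE and epiblast states, with 1 point for each library (symbols) and the mean with its SD over 3 libraries as bars. Slc39a8, Slc22a23 and Slc38a6 have their highest mean in PrE and their lowest in epiblast, Slc7a7 and Slc39a4 stand highest in PrE, and Slc7a3 and Slc25a5 stand high in epiblast.

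Of the 3 carriers of bicarbonate, chloride and other anions, 2 were higher and 1 lower in PrE over epiblast. Of the 3 cation-chloride cotransporters 2 were higher, and of the 4 carriers of sodium, potassium, calcium and protons 2 were higher and 1 lower. In that comparison 19.6% of all genes tested were higher and 17% lower. Slc4a2 (AE2, a chloride and bicarbonate exchanger; chr5:24423837-24440950) was at 29.4, 30.3 and 22.0 CPM in the PrE state, 21.9, 24.5 and 16.4 in the TE state and 3.26, 3.18 and 3.23 in the epiblast state. Both extraembryonic states lay above the epiblast and overlapped each other. The log2 fold change was 3.01 ± 0.12 for PrE and 2.48 ± 0.13 for TE over epiblast (edgeR adjusted p = 2.8e-08 and 3.7e-07), the latter the highest log2 fold change of the 82 genes in TE over epiblast. It shares 1141 exon bases with Fastk on the opposite strand. The bicarbonate importer Slc4a7 ran the other way, at 8.18, 8.74 and 14.5 CPM in the PrE state, 29.0, 28.6 and 38.2 in the TE state and 28.2, 26.7 and 28.5 in the epiblast state. It was lower in PrE than in epiblast by -1.67 ± 0.12 and than in TE by -1.55 ± 0.13 (1.1e-06 and 5.2e-06).

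The sulfate carrier Slc26a2 was at 68.6, 79.9 and 84.6 CPM in the PrE state, 33.2, 44.2 and 34.7 in the TE state and 9.52, 12 and 16.2 in the epiblast state, without overlap. It was called in PrE over epiblast (2.55 ± 0.14), TE over epiblast (1.37 ± 0.14) and PrE over TE (1.19 ± 0.13), the last of which turned to -0.17 in barcodes with 5000 to under 10000 UMIs.

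Of the cation-chloride cotransporters, which set cell volume, Slc12a2 (NKCC1) was at 66.0, 65.8 and 60.5 CPM in the PrE state, 22.7, 24.3 and 17.7 in the TE state and 19.0, 20.8 and 19.9 in the epiblast state. It was higher in PrE than in epiblast by 1.56 ± 0.10 and than in TE by 1.70 ± 0.10 (edgeR adjusted p = 3.2e-07 and 8.4e-07). With barcodes that meet more than 1 state limit left out, the first of these was 0.97, under 2-fold. Slc12a4 (KCC1) was higher in PrE (1.73 ± 0.11) and in TE (1.05 ± 0.12) than in epiblast, and without Type I the latter was 0.98. The mitochondrial sodium and calcium exchanger Slc8b1 was higher in PrE than in epiblast by 1.42 ± 0.13 and than in TE by 1.20 ± 0.13. It lay under 10 CPM in every TE and epiblast library and met the 10 CPM rule through its PrE level, so these values are descriptions. Slc24a5 was lower in PrE than in epiblast by -1.03 ± 0.12 (2.8e-05), -0.83 without Type II, and shares 921 exon bases with Myef2 on the opposite strand. Slc22a23, an orphan of the organic ion family (ENSMUSG00000038267, chr13:34179158-34345182, minus strand), was at 35.0, 33.9 and 27.8 CPM in the PrE state, 11.5, 11.3 and 10.9 in the TE state and 1.88, 2.11 and 1.48 in the epiblast state. Its log2 fold changes were 3.97 ± 0.11, 2.29 ± 0.13 and 1.68 ± 0.09 for PrE over epiblast, TE over epiblast and PrE over TE (5.9e-09, 6.2e-07 and 5.9e-07).

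The Slc25 family, grouped here as mitochondrial carriers by family name, was the largest role, with 17 genes, and the one with most of the level. Of these genes 3 were higher and 2 lower in PrE over epiblast, 1 higher and 2 lower in TE over epiblast and 2 higher in PrE over TE, and the median log2 fold change was 0.02, -0.32 and 0.23. Of all genes tested, 19.6% were higher and 17% lower in PrE over epiblast, so these counts were near or under the shares of all genes. The shares were 12.4% and 9.6% in TE over epiblast and 12.1% and 12% in PrE over TE. The 2 main ADP/ATP carriers, which exchange mitochondrial ATP for cytosolic ADP, differed from the epiblast in opposite directions. Slc25a4 (chr8:46206797-46211284) was at 916, 905 and 948 CPM in the PrE state, 689, 744 and 676 in the TE state and 421, 408 and 411 in the epiblast state. Slc25a5 (chrX:36795651-36798807) was at 193, 210 and 268 CPM in the PrE state, 270, 309 and 258 in the TE state and 535, 561 and 521 in the epiblast state. In CPM, which does not depend on gene length with this 3′ assay, Slc25a4 was the higher of both genes in every PrE and TE library and Slc25a5 in every epiblast library.

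For Slc25a4, PrE over epiblast was 1.02 ± 0.07 on the log2 scale (edgeR adjusted p = 7.7e-07) and lay under 2-fold with DESeq2 at 0.98 and without barcodes found in more than 1 library at 0.83. For Slc25a5, PrE over epiblast was -1.42 ± 0.12 and TE over epiblast -1.24 ± 0.12 (3.3e-06 and 2.0e-05). With plain totals the latter was -0.95. For Slc25a5, 33.4% of windows near the transcript end also occur in 6 other genes, among them Slc25a5-ps, so its level is uncertain. The phosphate carrier Slc25a3 had the narrowest range of the 82 genes, 1.03 times between state means: 499, 494 and 575 CPM in the PrE state, 527, 536 and 517 in the TE state and 510, 549 and 557 in the epiblast state.

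Other genes of the Slc25 family were called one at a time. Slc25a1, which exports citrate for lipid synthesis, was at 86.2, 88.8 and 98.3 CPM in the PrE state, 39.9, 43.9 and 35.3 in the TE state and 36.9, 42.6 and 38.0 in the epiblast state. It was higher in PrE than in epiblast by 1.07 ± 0.10 and than in TE by 1.33 ± 0.10 (edgeR adjusted p = 4.5e-06 and 2.9e-06). The pyrimidine nucleotide carrier Slc25a36 was at 26.9, 25.9 and 21.3 CPM in the PrE state, 27.0, 25.2 and 27.8 in the TE state and 56.9, 49.3 and 58.4 in the epiblast state. PrE and TE overlapped and both were lower than epiblast, by -1.25 ± 0.09 and -1.32 ± 0.09 (9.1e-07 and 2.6e-06). Also called were Slc25a44, a carrier of branched-chain amino acids (2.31 ± 0.16 for PrE over epiblast and 1.67 ± 0.15 for PrE over TE), and the NAD carrier Slc25a51 (1.03 ± 0.09 for TE over epiblast). Slc25a39, which brings glutathione into mitochondria, the aspartate and glutamate carrier Slc25a13, and Slc25a28 and Slc25a17 were not called in any of the 3 comparisons.

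All 10 nucleotide sugar and related carriers of family Slc35 had their highest mean in the PrE state, and 3 were called higher in PrE over epiblast and none in the other comparisons. Slc35b4 was at 41.3, 42.8 and 39.5 CPM in the PrE state, 23.3, 24.0 and 23.3 in the TE state and 16.6, 17.7 and 13.3 in the epiblast state, with a log2 fold change of 1.22 ± 0.08 over epiblast (edgeR adjusted p = 4.6e-07). Likewise Slc35f6 (1.73 ± 0.09) and Slc35f5 (1.67 ± 0.13) were called. The median over the 10 genes was 0.71 for PrE over epiblast. Slc35b1 was at 39.0 CPM in the PrE state of Type III and at 22.8 and 23.2 CPM in that of Types I and II, so its highest mean rested on 1 library. The lysosomal sialic acid exporter Slc17a5 was higher in PrE than in epiblast by 1.67 ± 0.12 and than in TE by 1.24 ± 0.12. Among the 3 genes grouped here as sugar carriers, Slc45a4 (1.06 ± 0.12) and Slc37a3 (1.02 ± 0.09) were called in PrE over TE. Both lay under 2-fold with plain totals, at 0.92 and 0.87, and without Type I, at 0.90 and 0.98. What these proteins carry was not tested.

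A small set stood highest in the TE state. The choline carrier Slc44a2 was at 25.1, 24.6 and 40.9 CPM in the TE state, 7.34, 9.54 and 7.0 in the PrE state and 11.4, 11.6 and 13.1 in the epiblast state, and TE lay above all others. PrE over TE was -1.63 ± 0.15 (edgeR adjusted p = 1.2e-05), and TE over epiblast was 0.98 ± 0.15, short of 2-fold. The monocarboxylate family member Slc16a6 was at 40.3, 48.5 and 57.3 CPM in the TE state, 22.3, 25.3 and 24.9 in the PrE state and 21.3, 25.8 and 24.6 in the epiblast state. TE lay above all others here too, and neither TE over epiblast (0.71 ± 0.08) nor PrE over TE (-0.83 ± 0.08) reached 2-fold. Slc44a1 and the thiamine carrier Slc19a2 also had their highest mean in the TE state and were not called, nor was Slc10a7, of the bile acid carrier family. The phosphate carriers Slc20a1 and Slc20a2 and the sodium and proton exchanger Slc9b1 had their highest mean in the epiblast state, and Slc49a4 in the PrE state, and none of these 4 genes was called.

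Partner proteins of carriers, from a list of 11 tested genes, were higher in PrE than in epiblast in 7 cases and lower in none, with a median log2 fold change of 1.14. Of all genes tested, 19.6% were higher and 17% lower in PrE over epiblast, and 12.1% and 12% in PrE over TE. Pdzk1, a scaffold that holds carriers at the apical membrane, was at a mean of 15.8 CPM in PrE and 1.81 CPM in epiblast (log2 fold change 3.01), and Emb, a chaperone of monocarboxylate carriers, at 595 and 157 CPM (1.76). In TE over epiblast 0 of the 11 were called by edgeR. Among 24 tested genes of the ABC, Slco and proton pump families, 12 were higher and 4 lower in PrE over epiblast and likewise 12 and 4 in PrE over TE. They include Slco2a1 (4.22 for PrE over epiblast), and Slco5a1 (-3.59) and Slco4a1 (-3.49), both under 3 CPM in every state mean.

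Among 26 tested targets of ATF4, the factor that raises amino acid carriers under amino acid shortage, 8 were lower and 3 higher in PrE over epiblast, with a median of -0.22. Of all genes tested in that comparison, to set beside this list and the next 2, 19.6% were higher and 17% lower. Nupr1 (-4.57), Chac1 (-2.75) and Ddit4 (-2.19) were lower. Of 20 tested genes of amino acid sensing at the lysosome 3 were higher and 3 lower, shares under those of all genes tested. Deptor (-3.35), the arginine sensor Castor1 (-3.32) and Rragb (-2.86) were among the lower and are named by the size of their change. Castor1 had state means of 4.65, 23.1 and 39.3 CPM in PrE, TE and epiblast, the same order as Slc7a3. Of 16 folate and one-carbon genes 3 were higher and 3 lower, with the folate receptor Folr1 at 148 CPM in PrE and 22.6 CPM in epiblast (2.55).

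Per barcode, after thinning to 10000 UMIs, the median carrier had a UMI in 20.6% to 21.7% of PrE barcodes, 16.1% to 18.1% of TE barcodes and 13.7% to 14.5% of epiblast barcodes, over the 3 libraries. Between 11 and 13 genes were found in at least 50% of PrE barcodes, 7 to 9 in TE and 8 in epiblast. The median Fano factor lay between 1.03 and 1.14 in all 9 groups, close to the value of 1 for random sampling. Without thinning the median shares were 56.3% to 69.8%, 48.3% to 63.9% and 45.6% to 49.2%. Free RNA can give UMIs in barcodes of a state that lacks a gene, and its part was not tested. Any such UMIs would be within the low shares of Slc39a8 and Slc22a23 in epiblast barcodes (0.826% to 2.39%) and of Slc7a3 in PrE barcodes (1.48% to 3.17%). These are observed shares with counting error, from only 121 epiblast and 63 PrE barcodes in Type III, and set no firm upper limit.

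**Figure D4:**
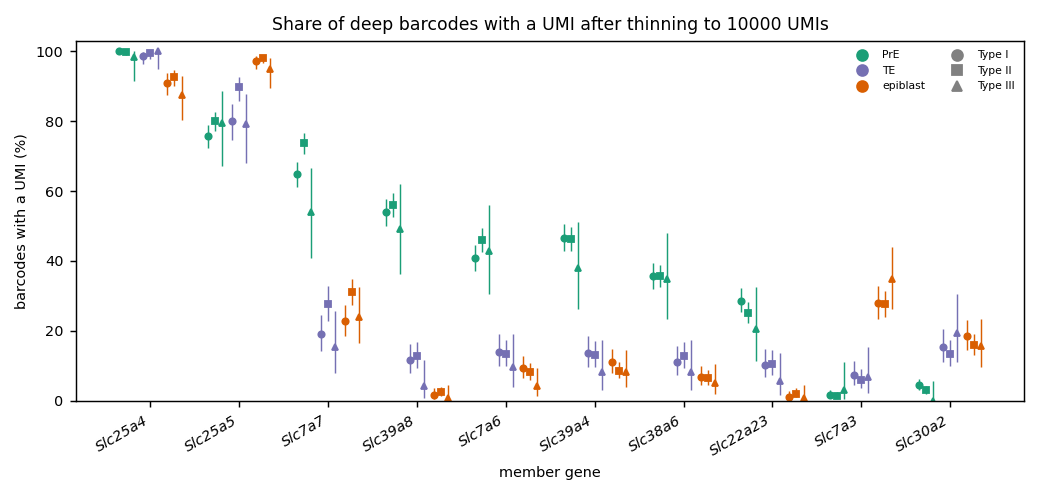
Share of deep barcodes with at least 1 UMI of 10 genes after thinning every barcode to 10000 UMIs, by state (colour) and library (symbol), with exact 95% intervals for counting error as bars. Slc25a4 was found in 87.6% to 100% of barcodes of every group, while Slc39a8 ran from 49.2% to 56.0% in PrE down to 0.826% to 2.39% in epiblast.

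The 3 types were compared on counts summed over deep barcodes, as log2 of the ratio of CPM with 10 CPM added on both sides, and with no test because each type has 1 library. Between Types I and II none of the 82 genes was 2-fold apart, where 0.0142% of the 7023 genes at 10 CPM or more were, and the log2 ratios ran from -0.19 to 0.33. Between Types I and III again none was, against 0.726% of all such genes, and the ratios ran from -0.67 for Slc39a8 to 0.86 for Slc7a5. Between Types II and III 1 gene was 2-fold apart, against 0.427%.

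That gene was Slc7a5 (LAT1, which imports leucine and other large neutral amino acids as a partner of Slc3a2; chr8:121881150-121907694, minus strand). It was at 16.7, 13.7 and 38.5 CPM in Types I, II and III, and Type III over Type II was 1.04 on the log2 scale with 10 CPM added. Type III was the highest within each state as well: 11.9, 9.93 and 30.4 CPM in PrE, 18.6, 14.0 and 41.1 in TE and 25.0, 18.7 and 43.9 in epiblast. With each state given equal weight Type III over Type II was 1.00, and with 20 CPM added, with TMM scaling or over all barcodes with at least 1000 UMIs it was under 2-fold. The nucleoside carrier Slc29a1 was at 63.8, 83.0 and 109 CPM in the 3 types and passed 2-fold within the PrE state only (52.1 CPM in Type I and 117 CPM in Type III, 1.04), where the 63 Type III barcodes also held the UMIs of Gm8994 and Tcstv3 given above. Their part in that value was not tested. Within the TE state Slc7a7 was at 29.8, 51.4 and 20.1 CPM, and Type III over Type II was -1.03. With Slc7a5, 2 of the 82 genes were thus 2-fold apart there, as were 63 of the 7023 genes at 10 CPM or more. The PrE markers held in the TE state were at 1793, 2013 and 517 CPM in the 3 types. Their part in the Slc7a7 value was not tested. Slc39a8 was at 49.6, 43.5 and 27.6 CPM in the 3 types but at 88.1, 89.6 and 85.4 CPM within the PrE state, while PrE barcodes made up 47.9%, 44.0% and 23.2% of deep barcodes. Fewer barcodes of a state and less RNA per cell cannot be told apart in the pooled sums.

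**Figure D5:**
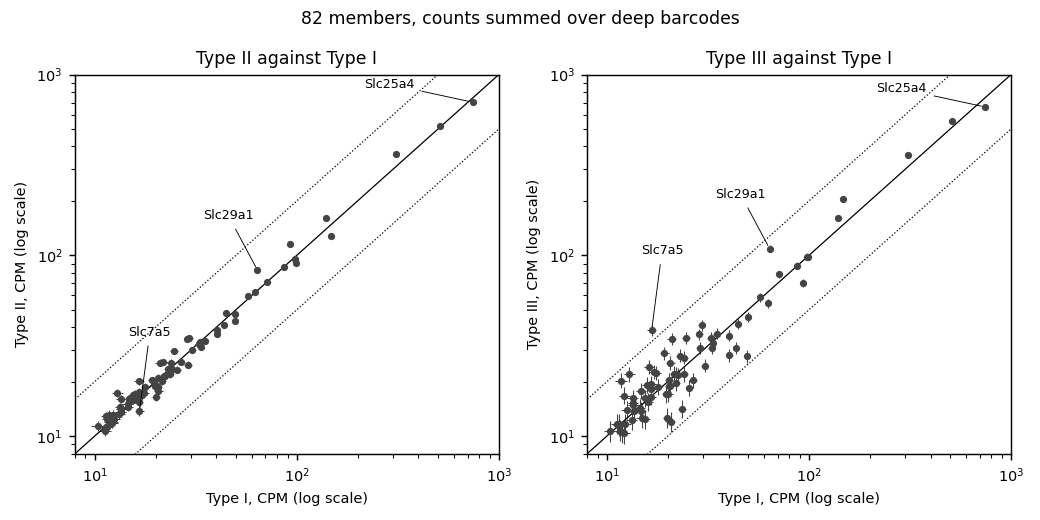
CPM of the 82 genes in Type II (left) and Type III (right) against Type I, on log axes, with exact 95% Poisson intervals for counting error as bars. The solid line marks equality and dotted lines a 2-fold ratio without added CPM, and Slc7a5 is the 1 gene above the upper dotted line in Type III.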

How the data were processed

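Libraries of 3 blastoid types, 1 per type, were made with the 10x Genomics 3′ assay and sequenced as single cells. The deposited matrices hold UMI counts per gene and barcode, and the file headers name Cell Ranger 6.0.1 as the program the authors used. The submitters' processing notes give mm10 as the genome build. No source used here says whether counting used strand. The matrices hold 6813, 9265 and 2310 barcodes with 90126648, 106445641 and 25443474 UMIs, and barcodes that passed both limits (10000 UMIs, and 20% of them from mitochondrial genes) hold 82.2% to 86.9% of them.

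Counts were summed per library and state (Python 3.11.15, pandas 2.3.3, scipy 1.17.1) and compared with edgeR 4.0.16 in R 4.3.3: filterByExpr, TMM factors, the library as a block, the quasi-likelihood test and Benjamini-Hochberg adjustment over 13502 genes. DESeq2 1.42.0, other scalings, filters, depths and state limits and leaving out each library were alternatives. On simulated data for PrE over epiblast (12880 genes) calls were made at an adjusted p of at most 0.05 alone, without the 2-fold limit. They covered 80% of genes changed 1.5-fold, 100% of those changed 2-fold and 8 of 12680 unchanged genes. The simulated libraries and states shared the same means apart from the changed genes, with 1 fixed spread for all genes. Only genes at 10 CPM or more were changed, so these rates describe that setting and not the real counts. Doublets were not removed. Intervals are exact, cover counting error only, and a count of 0 was given a limit of 3 counts. Positions come from GENCODE vM21 and promoter sequence from RefSeq GRCm38.p6. Genes named were the 6 highest and 6 lowest called carriers of each comparison with the same sign in 3 libraries, the 12 most abundant, the 2 most abundant of each role, those next to the limit of 10 CPM, those 2-fold apart between libraries, the 6 flattest, and up to 3 per list by absolute log2 fold change. The genes, roles and lists were chosen with earlier results of these data known. The library number pairs the states because each library gives all 3 states from the same blastoids, which is why the fit has the block. 1 of the 82 genes is counted in the totals and not reported here by name.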

Additional observations from a re-analysis of the deposited data

Results flagged for a closer look

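A pair of carriers outside the set had a clear level in 1 state although their pooled level missed 10 CPM in Type III. Slc7a9, a carrier of cystine and basic amino acids in absorptive epithelia, had a mean of 30.6 CPM in the PrE state (32.0, 34.5 and 25.2 CPM in Types I, II and III), against 5.28, 8.19 and 0.321 CPM in the TE state and 0.458, 0.960 and 0.269 CPM in the epiblast state. Its pooled level was 17.6, 17.0 and 7.60 CPM. Slc23a1, a carrier of vitamin C, had a mean of 24.4 CPM in the PrE state (23.7, 25.7 and 23.9 CPM), against 3.79, 6.11 and 1.93 CPM in the TE state and 6.67, 6.57 and 3.5 CPM in the epiblast state. Its pooled level was 14.7, 14.6 and 9.03 CPM. Both were picked out by their level in the PrE state, so these values are a description.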

How the results depend on the processing

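Over the alternatives, 838 values of 57 called differences of named carriers gave 796 with the same call, 40 that missed it and 2 that turned. The fit on barcodes with 5000 to under 10000 UMIs was the only alternative that used no deep barcodes. It gave 17 with the same call, 21 that missed it and the 2 that turned (Slc7a3 at 0.88 and Slc26a2 at -0.17 in PrE over TE). In those barcodes 11 carriers were higher and 5 lower in PrE over epiblast, 4 higher and 3 lower in TE over epiblast, and 0 higher and 0 lower in PrE over TE by edgeR, with 52 carriers tested. Of all 5964 genes tested there, 563 were higher and 330 lower in PrE over epiblast, 357 and 204 in TE over epiblast, and 94 and 113 in PrE over TE. The carriers higher in TE over epiblast numbered 15 with plain totals and 13 with state limits at 2 times the rule's values. Leaving out each library in turn gave 29 to 29 carriers higher and 5 to 7 lower in PrE over epiblast, 8 to 8 and 5 to 5 in TE over epiblast, and 21 to 25 and 4 to 4 in PrE over TE. With no replicate block, which drops the pairing of states by library, the counts were 29 and 6, 9 and 5, and 22 and 4, and no call of a named carrier changed. Between types, 1 carrier was 2-fold apart in Type III over Type I with 1 CPM added, and 0 in Type III over Type II with 20 CPM added, with TMM scaling or over all barcodes with at least 1000 UMIs. Within the TE state 2 were apart in Type III over Type II, Slc7a5 at 1.09 and Slc7a7 at -1.03, against 63 of the 7023 genes at 10 CPM or more. A limit of 5 CPM gave 136 carriers and one of 20 CPM gave 37. The median share of barcodes with a UMI was 17.5% thinned and 55.5% unthinned. The cause of these changes was not tested. The number of barcodes is smallest in Type III, with 63 PrE barcodes.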
